A study of Macaca mulatta with 6 samples.

Results

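The rod phototransduction cascade was examined in the retinas of 3 rhesus macaques, taken 24 h after the optic nerve of 1 eye had been irradiated by gamma knife within the orbit. Its members were taken by gene symbol: the transducin subunits GNAT1, GNB1 and GNGT1, the phosphodiesterase subunits PDE6A, PDE6B and PDE6G, the cation channel subunits CNGA1 and CNGB1, and the arrestin SAG. The platform annotation gave a probe set to 8 of these 9 genes, and PDE6B was not analysed here. The 8 genes had 13 probe sets, of 14132 genes and 52024 probe sets in all. The treated group held the 3 retinas on the side of the irradiated nerve (prescribed dose 15 Gy, with 3 Gy reaching the eyeball), and the control group held the 3 contralateral retinas of the same male monkeys, aged 8 to 10 years, whose eyeballs received 1 Gy, so that no retina was free of radiation. RNA came from the temporal side of each retina, dissected without the pigment epithelium, and each sample was read in a single color on its own Rhesus Macaque Genome Array from Affymetrix. All values are log2 of the MAS 5.0 signal, a brightness summary of the probes of a probe set after scaling of every array to the same mean, and a log2 fold change is the treated minus the control value. With 6 arrays, precision is limited by their number. A smaller number of rods and less RNA per rod cannot be told apart in whole retina.

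In rods, a visual pigment that has absorbed light switches on the G protein transducin, which carries an alpha, a beta and a gamma subunit. Transducin alpha then releases the catalytic phosphodiesterase subunits from their inhibitory gamma subunit, cyclic GMP is broken down, and the cyclic GMP-gated channel of the outer segment closes. Arrestin ends the response by binding the activated pigment. Rods far outnumber cones in the primate retina, and transcripts of this cascade are among the most abundant in the tissue.

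All 8 genes were slightly lower in the treated retinas by their brightest probe set, the probe set of each gene with the highest mean signal, and each was lower in 3 of 3 pairs. A pair is the treated and the control array of the same replicate number. The labels do not state that both came from the same monkey. The log2 fold changes lay between −0.59 for CNGB1 and −0.12 for GNGT1, with a median of −0.28 (a change of −17.4%), and the median was −0.24, −0.34 and −0.18 in the pairs of replicates 1 to 3. Over all 52024 probe sets the median was −0.038. Of the 13 probe sets of the cascade, 12 had a log2 fold change below 0, as did 28416 of all 52024 probe sets. Lower in 3 of 3 pairs were 10 of the 13, against 16.1% of all probe sets. None of the 13 passed the paired test after adjustment (limma, with p-values adjusted by the Benjamini-Hochberg method across the 52024 probe sets). The smallest adjusted p was 0.371. In the same test 0.00192% of all probe sets were called lower and 0.11% higher. At an unadjusted p under 0.05, 7 of the 13 were lower, against a background of 3.77%, and 0 were higher, against 2.97%. The methods' t-test gave 3 lower at an unadjusted p under 0.05, against a background of 2.88%, and 0 higher, against 2.68%, and after adjustment it called 0 of the 13 and 0% of all probe sets. In 3 of the 13 probe sets every treated array lay below every control array, which 3.53% of all probe sets showed.

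**Figure D1:**
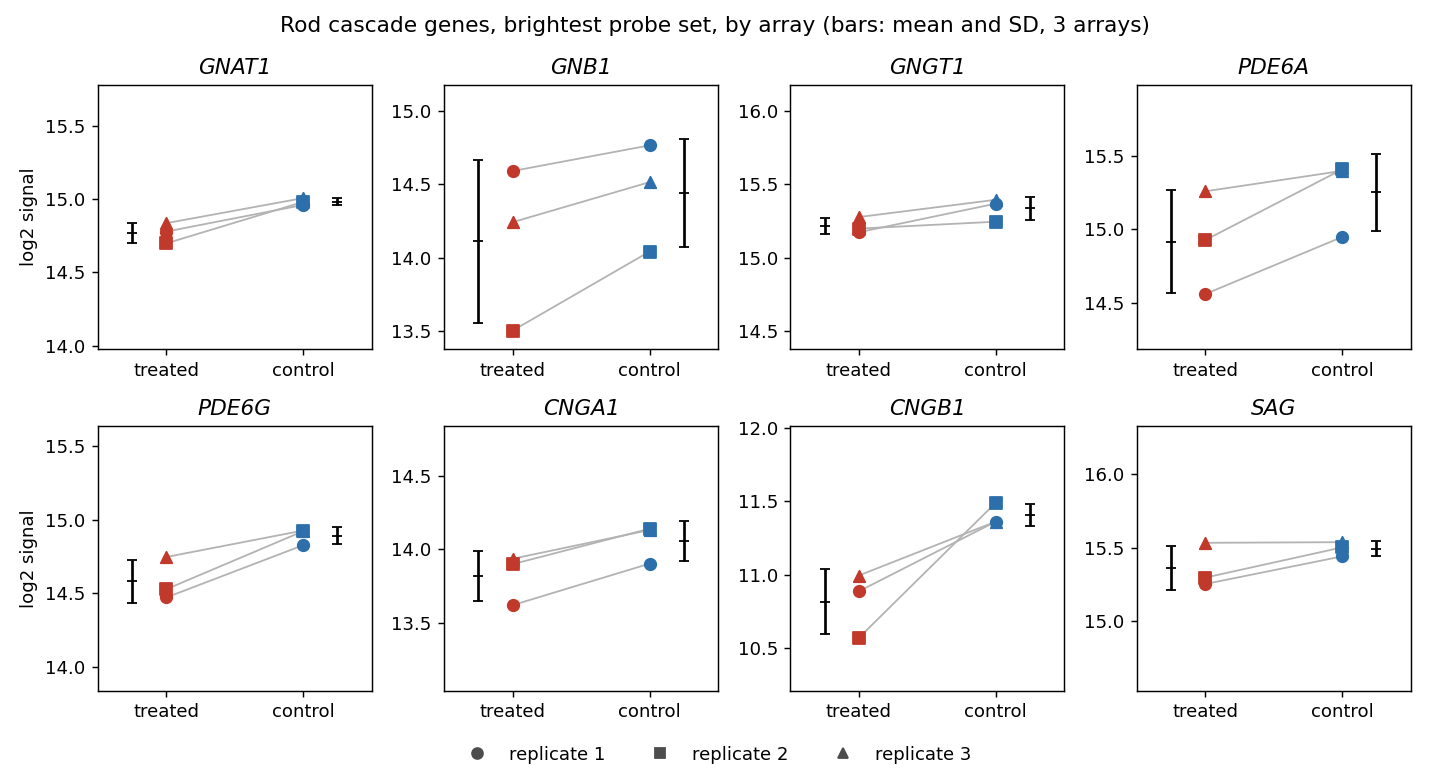
Log2 MAS 5.0 signal (vertical axis, each panel spanning 1.8 log2 units at its own level) of the brightest probe set of 8 rod cascade genes in treated (left, red) and control (right, blue) retinas; symbols mark the replicate, grey lines join the retinas of a pair, and bars are the mean and SD of 3 arrays. The line of every pair runs upward to the control retina, and the groups do not overlap for GNAT1, PDE6G and CNGB1.

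Transducin alpha, encoded by GNAT1, is the subunit that carries the signal from the pigment to the phosphodiesterase. Its brightest probe set had log2 signals of 14.78, 14.70 and 14.84 in the treated retinas of replicates 1 to 3, against 14.96, 14.98 and 15.01 in the control retinas. The groups did not overlap, and the control retinas differed among themselves by less than any of them differed from a treated retina. Treated retinas differed from control retinas by −0.21 on the log2 scale (SE 0.097, 95% interval −0.44 to 0.014, adjusted p = 0.751 from limma). The second probe set of GNAT1 was far less even, at 14.10, 12.07 and 13.41 in treated retinas and 14.55, 13.69 and 12.96 in control retinas. Its pair differences were −0.45, −1.62 and 0.45, so that it was lower in 2 of 3 pairs, and the fit gave −0.54 (SE 0.32, adjusted p = 0.754).

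GNB1, the transducin beta subunit, is not confined to rods and serves G proteins in many cell types. Its brightest probe set read 14.59, 13.51 and 14.24 in treated retinas and 14.77, 14.04 and 14.52 in control retinas. Replicate 2 was the lowest in both groups, and the groups overlapped, while each treated retina was below the control retina of the same replicate number. The fitted log2 fold change was −0.33 (SE 0.11, adjusted p = 0.679 from limma). A second probe set was lower in 3 of 3 pairs at −0.22 (SE 0.093, adjusted p = 0.736), and the third, the dimmest, stood at −0.40 (SE 0.20, adjusted p = 0.752) with pair differences of −0.62, −0.86 and 0.28.

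GNGT1, the gamma subunit of rod transducin, anchors the complex to the disc membrane. It read 15.17, 15.20 and 15.28 in treated retinas and 15.37, 15.24 and 15.39 in control retinas. The treated retina of replicate 3 was above the control retina of replicate 2, and the 6 arrays spanned 0.22 log2 units. For GNGT1 the log2 fold change was −0.12 (SE 0.10, 95% interval −0.35 to 0.12, adjusted p = 0.815 from limma). It was −0.027 after quantile normalization and −0.023 with arrays centred on their medians.

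The phosphodiesterase hydrolyses cyclic GMP, and PDE6A encodes 1 of its catalytic subunits. The brightest probe set of PDE6A read 14.56, 14.92 and 15.26 in treated retinas, against 14.95, 15.41 and 15.40 in control retinas. Replicate 1 was the lowest in both groups, and the groups overlapped. The difference was −0.34 on the log2 scale (SE 0.11, 95% interval −0.59 to −0.080, adjusted p = 0.686 from limma). The other probe set of PDE6A was dim, 7.78 to 9.25 log2 units below the brightest signal of its array, and it was the only 1 of the 13 with a log2 fold change above 0. It read 8.32, 6.79 and 7.55 in treated retinas and 8.17, 7.11 and 6.79 in control retinas. The fitted value of 0.20 had an SE of 0.27 (higher in 2 of 3 pairs, adjusted p = 0.894).

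PDE6G encodes the inhibitory gamma subunit that transducin alpha displaces. Its probe set read 14.47, 14.53 and 14.75 in treated retinas and 14.83, 14.92 and 14.93 in control retinas. The groups did not overlap, and the treated retina of replicate 3 came nearest to the controls. The estimate was −0.31 on the log2 scale (SE 0.10, 95% interval −0.54 to −0.078, adjusted p = 0.676 from limma), a change of −19.4%.

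The cyclic GMP-gated channel admits sodium and calcium into the outer segment in darkness. CNGA1 encodes the pore-forming subunit, with 13.62, 13.90 and 13.94 in treated retinas and 13.90, 14.14 and 14.13 in control retinas. The 3 pair differences of CNGA1 were close together at −0.28, −0.24 and −0.20, and the groups overlapped, since the control retina of replicate 1 was below the treated retina of replicate 3. The fitted log2 fold change was −0.24 (SE 0.089, adjusted p = 0.728 from limma). CNGB1, the modulatory subunit, gave the lowest log2 fold change of the 8 genes. Its brightest probe set read 10.89, 10.57 and 10.99 in treated retinas, against 11.36, 11.49 and 11.36 in control retinas. The groups did not overlap, and the SD was 0.22 in treated retinas and 0.074 in control retinas (n = 3 each). The log2 fold change was −0.59 (SE 0.12, 95% interval −0.88 to −0.30, a change of −33.4%, unadjusted p = 0.00171, adjusted p = 0.371 from limma). The second probe set of CNGB1 was lower in 3 of 3 pairs, with pair differences of −0.73, −1.26 and −0.16 and an estimate of −0.72 (SE 0.21, adjusted p = 0.634).

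SAG, the rod arrestin, quenches the activated pigment. It read 15.25, 15.30 and 15.53 in treated retinas and 15.44, 15.50 and 15.54 in control retinas. The retinas of replicate 3 were nearly equal, with a difference of −0.0044, and the groups overlapped. For SAG the log2 fold change was −0.13 (SE 0.11, 95% interval −0.38 to 0.11, adjusted p = 0.803 from limma), and −0.036 both after quantile normalization and with arrays centred on their medians.

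**Figure D2:**
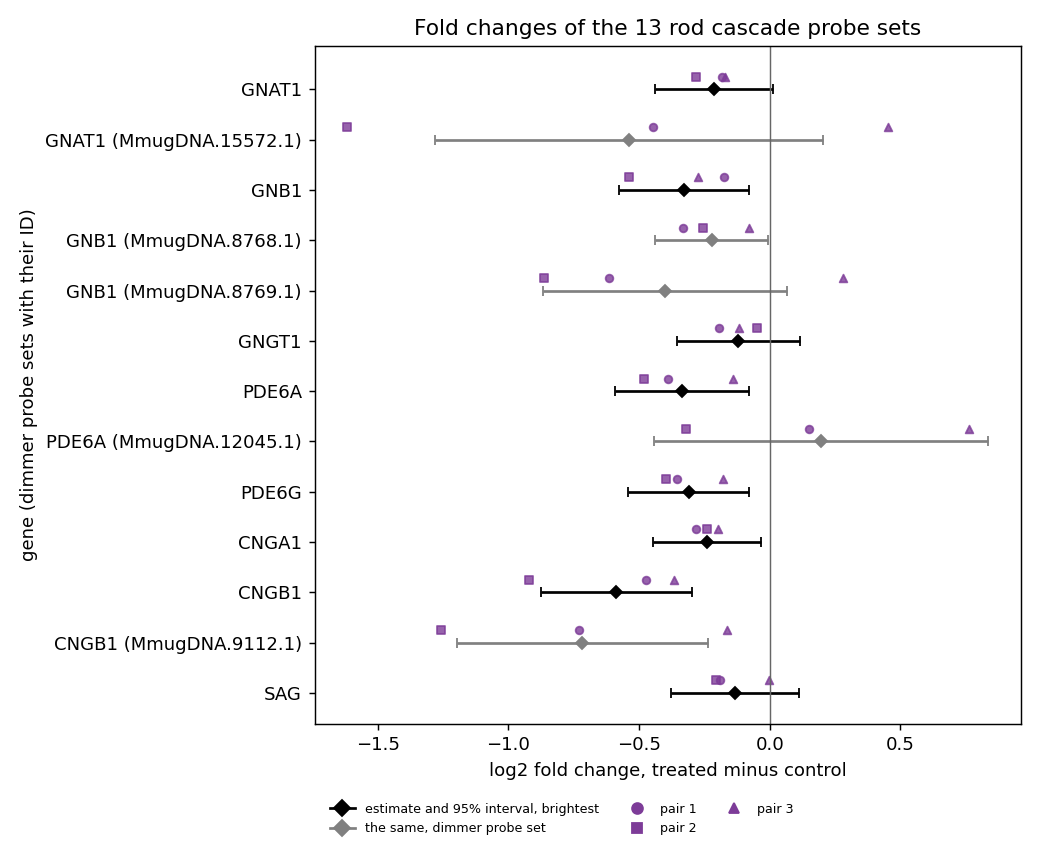
Log2 fold change, treated minus control (horizontal axis), of the 13 rod cascade probe sets, with the limma estimate and its 95% interval (black for the brightest probe set of a gene, grey for the others) and the difference of each pair (purple symbols). The pairs of the brightest probe sets all lie below 0, and those of 3 dimmer probe sets fall on both sides of it.

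The pairs were not alike in size. The difference was farthest below 0 in replicate 2 for 6 of the 8 genes and in replicate 1 for the other 2 (GNGT1 and CNGA1), and it was nearest to 0 in replicate 3 for 6. The treated array of replicate 2 also had the lowest median signal, 6.44 against 6.75 and 6.98 on the other treated arrays and 6.69 to 7.03 on the control arrays, and the most probe sets dimmer than a log2 signal of 5, 29.7% against 22.6% to 25.9% on the other 5. The part of these array properties in the result was not tested. Without replicate 2 the median of the 8 genes was −0.23, and 7 probe sets were lower at an unadjusted p under 0.05 (3.55% of all probe sets). Without replicate 1 the median was −0.26, and 2 probe sets were lower at an unadjusted p under 0.05 (2.36% of all). Without replicate 3 the median was −0.31, and 6 were lower (6% of all). Over the 6 arrays the 8 genes varied largely together, with a median Pearson's r of 0.70 (range −0.20 to 0.98) over their 28 pairings, in which the arrays, their scaling and the grouping are shared.

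Several of these signals lay close to the top of the range of the arrays. The highest log2 signal of any probe set was between 15.96 and 16.19 on the 6 arrays. SAG was 0.50 to 0.85 log2 units below it, with 12 to 20 probe sets above SAG on an array. GNGT1 was 0.64 to 0.94 units below it, with 21 to 31 probe sets above, and these 2 were within 1 log2 unit of the top on all 6 arrays. They also had the 2 smallest absolute fold changes of the 8 genes. PDE6A followed at 0.64 to 1.55 units below the top, GNAT1 at 1.03 to 1.33 and PDE6G at 1.11 to 1.64, while CNGB1 was 4.68 to 5.39 units below it. The values carry no saturation flag. For a probe set at the ceiling of the scanner a true difference reads as smaller, and the part of such compression in the small fold changes of SAG and GNGT1 was not tested.

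Since bright probe sets also vary little between arrays, the cascade was set beside the other bright ones. The median residual SD of the paired fit was 0.061 in the 47 probe sets with a mean log2 signal of 15 or more and 0.079 in the 188 between 14 and 15, against 0.22 in the 10840 between 7 and 9. Of the 740 probe sets with a mean log2 signal of at least 13, 20.9% were lower in 3 of 3 pairs, 6.76% were lower at an unadjusted p under 0.05, and the median log2 fold change was 0.016. Of the 8 rod cascade probe sets among them, which belong to 7 genes, 7 were lower in 3 of 3 pairs and 4 were lower at an unadjusted p under 0.05, with a median of −0.28.

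**Figure D3:**
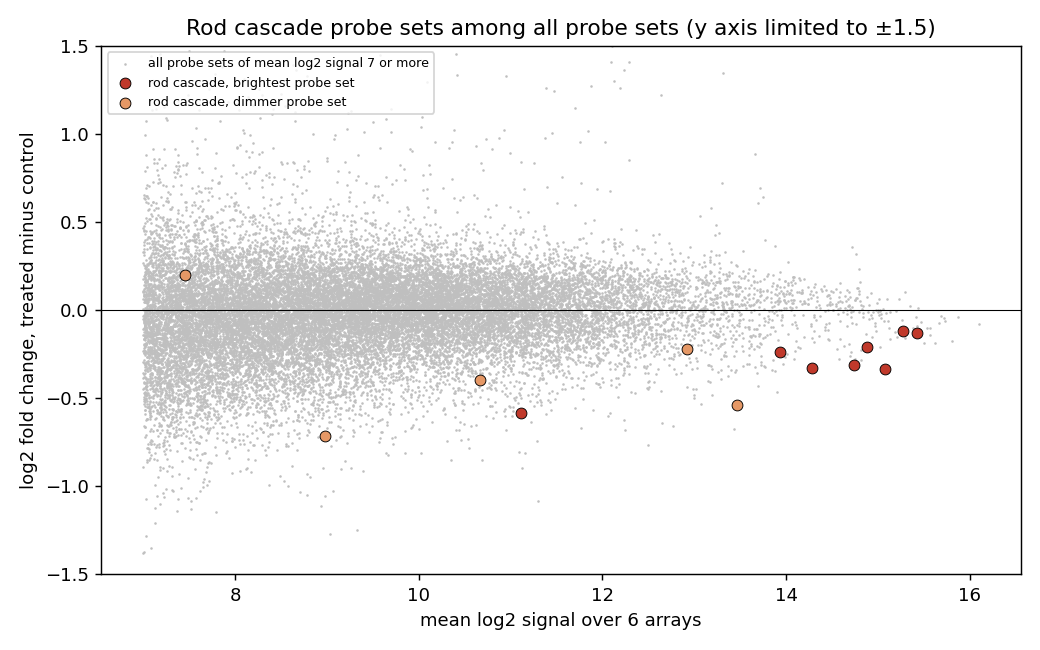
Log2 fold change, treated minus control (vertical axis, limited to 1.5 either way, which leaves out 59 probe sets), against the mean log2 signal over 6 arrays (horizontal axis) for 24101 probe sets with a mean log2 signal of at least 7 (grey), with the rod cascade in red (brightest probe set of a gene) and orange (others). SAG and GNGT1 lie at the bright end with small differences, and CNGB1 lies lower in signal with the largest difference of the 8 genes.

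Cones use a cascade of the same form built from a separate set of subunits, which gives each rod gene a counterpart on the same arrays. The cone beta subunit GNB3 stood at 0.16 (SE 0.096) and the cone catalytic subunit PDE6C at 0.12 (SE 0.11), beside GNB1 at −0.33 and PDE6A at −0.34. Since GNB1 is not confined to rods, GNB1 beside GNB3 does not compare rods with cones alone in whole retina. Replicate 2 weighed most in both cone genes, with pair differences of 0.030, 0.31 and 0.13 for GNB3 and 0.017, 0.34 and 0.0093 for PDE6C. The cone inhibitory subunit PDE6H, at −0.044 (SE 0.099), and the cone gamma subunit GNGT2, at −0.038 (SE 0.10), were nearer to 0 than PDE6G and GNGT1. PDE6H was itself close to the top of the range, 0.86 to 1.23 log2 units below it, and compression there was not tested. The cone channel subunits were dim, with CNGA3 at 0.043 (SE 0.20) and CNGB3 at 0.052 (SE 0.24) by its brightest and −0.46 by its other probe set. The cone transducin alpha GNAT2, at −0.30 (SE 0.12), and the cone arrestin ARR3, at −0.17 (SE 0.10), were as far below 0 as GNAT1 and SAG or farther. The pair differences were −0.42, −0.48 and 0.0098 for GNAT2, lower in 2 of 3 pairs, and −0.32, −0.068 and −0.13 for ARR3. In 6 of the 8 pairings the rod gene was below its counterpart in 3 of 3 replicate pairs. The differences, rod minus cone, ran from −0.64 for CNGB1 and CNGB3 to 0.084 for GNAT1 and GNAT2. An exact sign-flip test over 3 pairs (two-sided) cannot give a p under 0.25, so it could not pass the threshold here, and the differences are given as a description. Of the 9 cone genes measured, 5 were below 0, with a median of −0.038, and 1 was lower at an unadjusted p under 0.05 (GNAT2). Of all 52024 probe sets, 28416 were below 0, and 3.77% were lower at an unadjusted p under 0.05.

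**Figure D4:**
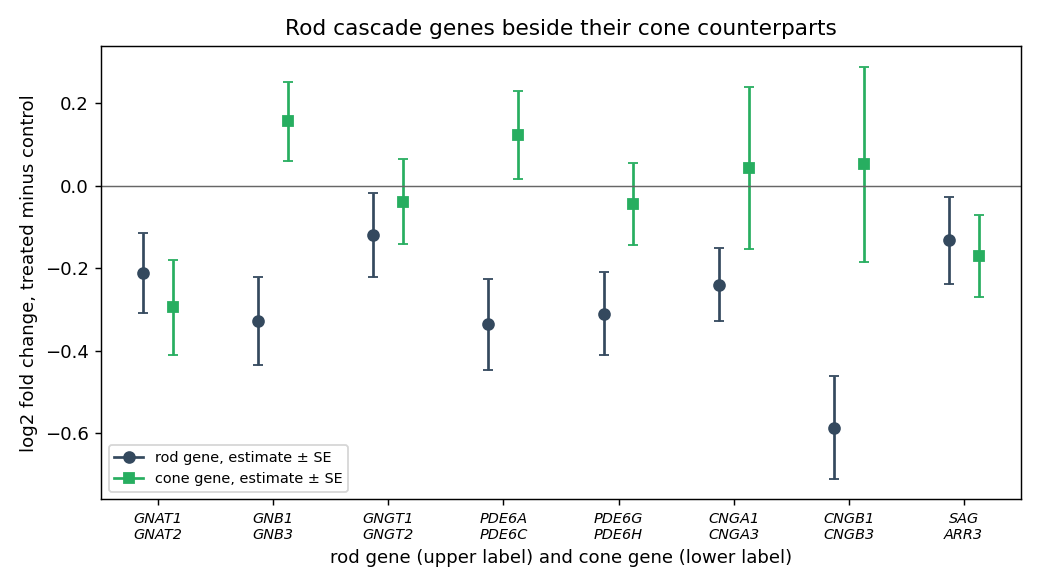
Log2 fold change, treated minus control (vertical axis), of 8 rod cascade genes (dark circles) and of the cone gene with the same role (green squares), with the limma SE as bars. The rod gene is the lower one except beside GNAT2 and ARR3.

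Genes of shut-off and calcium feedback, a list that covers rods and cones and includes the cone kinase GRK7 and the guanylate cyclase activator GUCA1C, which is also among the 9 cone genes, were read by their brightest probe sets. Of the 12 measured, 10 were below 0, beside 28416 of all 52024 probe sets, with a median of −0.084. At an unadjusted p under 0.05, 2 were lower, against 3.77% of all probe sets, and 1 was higher, against 2.97%. GUCA1A, a calcium sensor that activates guanylate cyclase, stood at −0.28 (SE 0.094, lower in 3 of 3 pairs, adjusted p = 0.705 from limma). SLC24A1, the rod sodium, potassium and calcium exchanger, stood at −0.49 (SE 0.17, adjusted p = 0.716), with pair differences of −0.42, −1.01 and −0.034, of which replicate 2 was the farthest from 0, while its other probe set gave −1.06. GUCY2D, a retinal guanylate cyclase that restores cyclic GMP, had an estimate of 0.50 (SE 0.19, adjusted p = 0.733) and pair differences of 0.19, 0.87 and 0.44. Among very bright genes of this list, recoverin (RCVRN) and phosducin (PDC) were at −0.062 (SE 0.098) and −0.018 (SE 0.10).

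All 8 measured genes of the list of other rod markers were below 0, as were 28416 of all 52024 probe sets. Their median was −0.16, and 3 were lower in 3 of 3 pairs, against 16.1% of all probe sets. At an unadjusted p under 0.05, 2 were lower, against 3.77%: SAMD7, a photoreceptor repressor protein, at −0.26 (SE 0.091, adjusted p = 0.716 from limma), with −0.34 and −0.23 by its other probe sets, and SLC24A1. GUCA1B, PDC and SLC24A1 of this list are also in the shut-off list. NRL and NR2E3 are also in the list of rod and cone transcription, and RP1 is in that of the outer segment. These lists are therefore not separate sets of genes. The rod transcription factors NRL and NR2E3 stood at −0.12 (SE 0.096) and −0.00030 (SE 0.10). CRX, which drives transcription in both kinds of photoreceptor, stood at −0.23 (SE 0.095, lower in 3 of 3 pairs, adjusted p = 0.736), and RORB, a nuclear receptor of photoreceptor development, at −0.46 (SE 0.21), a value carried by replicate 2, since its pair differences were −0.14, −1.14 and −0.10. Of the outer segment genes, 6 of 6 were below 0, with a median of −0.23, and the lowest unadjusted p was that of PROM1, a membrane protein of the disc rim, at −0.22 (SE 0.094) and −0.24 by its other probe set, followed by TULP1, a protein of photoreceptor transport, at −0.34 (SE 0.17). The summed linear signal of the rod markers other than the cascade was 100012 to 140346 in treated retinas and 111045 to 148758 in control retinas, ranges that overlap. That of the 8 cascade genes was 187515 to 220077 in treated retinas and 225037 to 241784 in control retinas. A linear sum weighs the brightest probe sets most, here SAG, GNGT1 and PDE6A, of which SAG and GNGT1 were near the top of the range. How often the sums of other gene sets separate was not tested. No gene of these lists passed after adjustment.

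The tissue label was checked on the same genes: 7 of the 8 cascade genes, all but CNGB1, were above 99.0% of probe sets on every array. Markers of other cells of the retina were read on the same arrays by their brightest probe sets, and their part in the result was not tested. Over all probe sets, 28416 of 52024 were below 0. All 5 measured markers of retinal ganglion cells were above 0 (median 0.26; summed linear signal 14951 to 19072 in treated and 12790 to 16939 in control retinas), and 5 of 8 microglial markers were (median 0.44; 1525 to 1944 in treated and 1265 to 1596 in control retinas). The other probe sets of the ganglion cell markers GAP43 and THY1 gave −0.21 and −0.0047, and those of RBPMS and STMN2 gave 0.54 and 0.29. Müller glia had 5 of 9 below 0 (median −0.13; 83176 to 111968 in treated and 89510 to 115576 in control retinas), and the pigment epithelium 6 of 7 (median −0.33; 4184 to 7100 in treated and 5934 to 7094 in control retinas). Of these 7 pigment epithelium markers, 0 were lower in 3 of 3 pairs, against 16.1% of all probe sets. Their median was −0.74, 0.12 and −0.11 in the pairs of replicates 1 to 3. POU4F2, a ganglion cell transcription factor, stood at 0.36 (SE 0.100, adjusted p = 0.601 from limma), and AIF1, a calcium-binding protein of microglia, at 0.78 (SE 0.24, adjusted p = 0.675). The other probe set of AIF1 gave 0.45 (SE 0.39), with −0.28 in the pair of replicate 2. The other microglial markers above 0 were C1QA at 0.61 (SE 0.15, adjusted p = 0.524 from limma), C1QB at 0.62 (SE 0.21), CX3CR1 at 0.62 (SE 0.46) and CSF1R at 0.28 (SE 0.27). The other probe set of C1QA gave 0.86 (SE 0.66), with −0.17 in the pair of replicate 3. The 3 microglial markers below 0 were TREM2 at −0.70 (SE 0.40), P2RY12 at −0.27 (SE 0.27) and C1QC at −0.11 (SE 0.23). Among Müller genes the values went both ways, with SLC1A3, a glutamate transporter, at 0.58 (SE 0.098, adjusted p = 0.164 from limma) and RLBP1, a retinoid carrier, at −0.45 (SE 0.086, adjusted p = 0.270). Bipolar cells, the rods' partners, had 3 of 8 below 0 (median 0.098), amacrine cells 2 of 6 (0.052), endothelium and pericytes 1 of 6 (0.22), horizontal cells 4 of 4 (−0.30), lens 3 of 4 (−0.21) and erythrocytes 1 of 2 (0.047). No marker measured was listed at 0 on any array.

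The genes outside the cascade with the most similar profile were found by Pearson's correlation over the 6 arrays with the mean profile of the 8 genes, among 9672 genes brighter than the median probe set. These were WNT2B, a secreted Wnt ligand (r = 0.98), SGIP1, an endocytic adaptor (0.98), ZNFX1, a helicase of antiviral defence (0.98), HOOK1, a microtubule-binding adaptor (0.97), and DIP2B (0.97). Their log2 fold changes were −0.35 (SE 0.25), −0.18 (SE 0.089), −0.099 (SE 0.10), −0.23 (SE 0.090) and −0.21 (SE 0.099), and none passed after adjustment. The 6 points share their arrays, scaling and grouping, and the correlations are given as a description.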

How the data were processed

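The authors hybridized 6 retinas to 6 arrays, computed MAS 5.0 signals in GeneSpring software, and deposited them as log2 values (for MAS5 itself, the version is not given). MAS 5.0 scales each array to a common mean (2% trimmed mean of the linear signal 505.3 to 505.8 on the 6 arrays). Detection calls were not used. Treated and control arrays were compared for all 52024 probe sets in R 4.3.3 by limma 3.58.1, using lmFit and a trended eBayes and blocking on the replicate number, since the methods pair the retinas of each monkey, and p-values were adjusted over all probe sets; no pseudocount, filter or further normalization was used. The labels give replicate numbers and not monkeys, so the pairing by number is an inference. The pairing was checked on deviations from the group means: arrays of the same number correlated at 0.36, 0.14 and 0.16, and others between −0.24 and 0.10. Probe sets were named by the platform annotation, with symbols updated by gene identifier from the table of assembly T2T-MMU8v2.0 (98.6% of probe sets with 1 symbol matched), and no coordinates or sequences were used. Every probe set of a member gene was named. Of the other lists, genes were taken from the 2 with the largest absolute moderated statistics, with the cone counterparts. Outside this rule, RCVRN, PDC, GUCY2D, NRL, NR2E3, TREM2, P2RY12, C1QC, C1QB, CX3CR1, CSF1R, RBPMS, THY1 and GAP43 were added after their values were seen. The 5 genes of most similar profile were also named. The members and lists were chosen with earlier results of these data known. The fit was tested on simulated data. Alternatives were no pairing, another variance prior, 2 normalizations, a filter on dim probe sets, a pseudocount of 16, the mean of a gene's probe sets, the methods' t-test and leaving out each replicate, and, chosen after seeing the data, centring on probe sets with a mean log2 signal of at least 13. Plots used matplotlib 3.10.9 under Python 3.11.15.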

Additional observations from a re-analysis of the deposited data

How the results depend on the processing

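No rod cascade probe set passed an adjusted p under 0.05 under any alternative tried, and the smallest adjusted p of a gene was 0.0878, that of CNGB1 without replicate 2. Of 96 combinations of gene and alternative, 36 leave the log2 fold change as it is by construction, and the other 60 were all below 0 (from −0.70 to −0.023). The count of 7 probe sets lower at an unadjusted p under 0.05 stood beside 3.77% of all probe sets. It was 1 with no replicate block, that is, without the pairing (1.16% of all probe sets), 0 without a trend in the variance prior (3.04%), 2 with each array centred on its median (2.2%) and 3 by the methods' t-test (2.88%). It was 8 with a filter on dim probe sets (4.09%) and 8 with centring on bright probe sets (3.6%). Leaving out a replicate gave 2 without replicate 1 (2.36%), 7 without replicate 2 (3.55%) and 6 without replicate 3 (6%). Centring on array medians moved the median of the 8 genes to −0.18. It put the median over all probe sets at 0.059, against −0.038 as deposited, so it raised every log2 fold change by 0.097, and of all probe sets at an unadjusted p under 0.05, 38.3% were lower with it and 56.0% as deposited. GNGT1 then stood at −0.023, SAG at −0.036, GNAT1 at −0.11 and CNGA1 at −0.14, and quantile normalization gave −0.027 for GNGT1 and −0.036 for SAG. The other settings left the median between −0.31 and −0.23. By the mean of all its probe sets PDE6A stood at −0.069 and GNAT1 at −0.37. With 3 pairs, the 95% intervals of GNAT1, GNGT1 and SAG included 0.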
